A study of Mus musculus with 6 samples.

Results

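A set of 10 genes that mark phagocytic microglia of early postnatal white matter was followed in the mouse cerebral cortex: Spp1, Gpnmb, Lgals3, Lgals1, Fabp5, Csf1, Lpl, Igf1, Cd63 and Ctsl. They were found by their symbols, and all 10 were among the 35857 genes listed for each library. Polyadenylated RNA had been sequenced from 3 brains labelled Qk knockout (Qk_KO, genotype Qk-/-) and 3 control brains (Control, genotype wild type), all of strain C57BL/6 at postnatal day 7. Quaking, the product of Qk, is an RNA-binding protein of glia and neural progenitors. The labels do not say which part of Qk was removed or in which cells, so a deletion limited to some cell types cannot be told apart from one in all cells. Values are TPM, a transcript abundance that corrects for gene length and gives every library the same total. The members were chosen by their known link to this state with the Qk_KO and Control values of these same libraries in view, Spp1 and Gpnmb being among the genes already seen to be higher in Qk_KO, so the differences of its members are given as a description and carry no test of their own.

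Microglia are the resident macrophages of the brain. In the first postnatal week a subset gathers in the developing white matter below the cortex, engulfs dying cells and excess oligodendrocyte-lineage cells, and switches on a lysosomal, lipid-handling and secretory programme that overlaps with the one seen around plaques and lesions in the adult. None of the 10 genes belongs to microglia alone. Outside microglia, Spp1 is also made by some neurons and stromal cells, Lgals1 by fibroblasts, vessels and progenitors, Fabp5 by astrocytes and radial glia, Csf1 by glia and neurons, Lpl by neurons and glial precursors, Igf1 by interneurons, and Cd63 and Ctsl by nearly every cell. Gpnmb and Lgals3 are left out of this list, and which cells made them in this cortex was not tested. In whole cortex a lower or higher level can come from the number of cells of a type or from the RNA in each cell, and these cannot be told apart.

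The start regions of the members with the widest gap between the groups are shown first, because they differ in base composition and in the motifs they hold. RefSeq windows of GRCm38.p6 were at hand for 7 of the 10 members (8 windows, Spp1 having 2 starts). Each ran from 250 bases before a RefSeq start to 50 bases after it. That start can differ from the GENCODE gene start given further on, and for Lgals3 it lies inside the GENCODE gene. Capitals mark matches to any of 5 motifs searched on both strands: CACGTG, the E-box bound by MITF and TFE factors, TCATGTG, the M-box, TGACTCA, the AP-1 site, GAGGAAGT, a core of the myeloid factor PU.1, and TATAAA, the TATA box.
Spp1 (upstream start, chr5:104434861-104435160, plus strand): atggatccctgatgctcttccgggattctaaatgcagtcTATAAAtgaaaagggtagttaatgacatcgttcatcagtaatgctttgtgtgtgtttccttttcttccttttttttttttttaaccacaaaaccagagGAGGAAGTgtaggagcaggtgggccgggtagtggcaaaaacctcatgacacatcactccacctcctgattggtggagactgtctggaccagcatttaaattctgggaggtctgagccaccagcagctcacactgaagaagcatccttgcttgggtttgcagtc
Gpnmb (chr6:49036268-49036567, plus strand): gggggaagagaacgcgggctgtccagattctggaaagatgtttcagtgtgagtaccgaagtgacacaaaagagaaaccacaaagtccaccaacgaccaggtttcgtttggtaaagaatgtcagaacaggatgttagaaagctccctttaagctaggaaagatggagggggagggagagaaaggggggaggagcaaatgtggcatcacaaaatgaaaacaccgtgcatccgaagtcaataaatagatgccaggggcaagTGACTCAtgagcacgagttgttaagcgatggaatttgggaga
Lgals3 (chr14:47373610-47373909, plus strand): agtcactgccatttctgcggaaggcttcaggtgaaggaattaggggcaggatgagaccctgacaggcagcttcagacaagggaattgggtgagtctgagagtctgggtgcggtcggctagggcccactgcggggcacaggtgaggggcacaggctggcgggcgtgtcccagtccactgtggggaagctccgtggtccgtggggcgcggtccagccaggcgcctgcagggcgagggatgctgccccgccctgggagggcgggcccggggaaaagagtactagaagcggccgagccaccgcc
The upstream Spp1 window held GAGGAAGT with its first base 113 bases before the start and TATAAA 211 bases before it. The Gpnmb window held TGACTCA, beginning at base 9 counted from the RefSeq start. The Lgals3 window held none of the 5 motifs and had a GC content of 67.0%, against 47.7% for Gpnmb and 45.3% for the upstream window of Spp1. The second Spp1 window (chr5:104435942-104436241, not printed) held none of the 5 motifs and had a GC content of 36.7%. Across 32851 windows of the same length, GAGGAAGT was found in 3.2%, TATAAA in 13.6%, TGACTCA in 5.2%, CACGTG in 7.15% and TCATGTG in 3.77%. Of the other members with a window, Ctsl held CACGTG 236 bases before its RefSeq start, and Csf1, Igf1 and Cd63 held no match. These matches are letters in a window and do not show binding.

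Quaking binds RNA through the core ACUAAY, so the longest coding GENCODE transcript of each member was searched for ACTAAC and ACTAAT. A match was present in 5 of the 10 members, and in 46.0% of the 13511 tested genes with such a transcript. Spp1 had 2 matches in a transcript of 1507 bases, Lgals3 had 1 in 1419 bases, Igf1 had 4 in 7052 bases, and Csf1 and Ctsl had 1 each. Gpnmb, Lgals1, Fabp5, Lpl and Cd63 had 0. The matches of the 2 members that differ most between groups and hold one are shown with 11 bases on either side, the core in capitals.
Spp1 transcript, base 185, before the coding sequence: tatgttgcaggACTAACtacgaccatga
Spp1 transcript, base 1161, after the coding sequence: taagcaggaatACTAACtgctcatttct
Lgals3 transcript, base 132, before the coding sequence: gcgggtggagcACTAATcaggaaaatgg
Qk itself had 7 matches in 8547 bases.

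As a check of the labels, Qk was at 14.6, 15.2 and 15.4 TPM in Qk_KO replicates 1, 2 and 3, against 36.5, 43.2 and 41.3 TPM in Control replicates 1, 2 and 3 (log2 change −1.36 ± 0.0945 SE, limma, adjusted p = 0.000855). Depth is unknown, since TPM keeps no read number. Sex was not in the labels: Qk_KO replicate 2 had 41.2 TPM of Xist and 0 TPM summed over 4 Y-linked genes, while the other 5 libraries had at most 0.03 TPM of Xist and 56.3 to 65.2 TPM of the Y-linked genes. Qk_KO replicate 2 was thus the one library with a female pattern, and the numbers of genes, members and listed genes past the threshold are also given without it. Of 14994 tested genes, whose TPM averaged 1 or more over the 6 libraries, 58 passed an adjusted p of 0.05 (limma), 15 of them higher in Qk_KO. The number was 28 without Qk_KO replicate 2, 34 without Qk_KO replicate 3, 27 without Control replicate 2 and 31 without Control replicate 3. Of these, 6, 9, 6 and 11 were higher in Qk_KO.

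The set split evenly. In 5 members, Spp1, Gpnmb, Lgals3, Lgals1 and Fabp5, every Qk_KO library lay above every Control library, and in the other 5 the groups overlapped. No member had every Control library above every Qk_KO library. Among all tested genes, 5.2% had all Qk_KO libraries above all Control libraries, 8.98% the opposite, and 14.2% either of these. Of the 10 members, 2 passed the threshold across all genes, Spp1 and Gpnmb, both higher in Qk_KO, while 0.387% of all tested genes passed in either direction, 0.1% upwards and 0.287% downwards. With any single library left out other than Qk_KO replicate 1, the members past the threshold numbered 0, also without the library that held Xist. Since the members were proposed with this contrast known, nothing is read from these counts. The median log2 change of the members was 0.25, beside −0.03 for all tested genes. All 10 passed the filter of a mean of 1 TPM, but Gpnmb did so through its Qk_KO values alone.

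**Figure D1:**
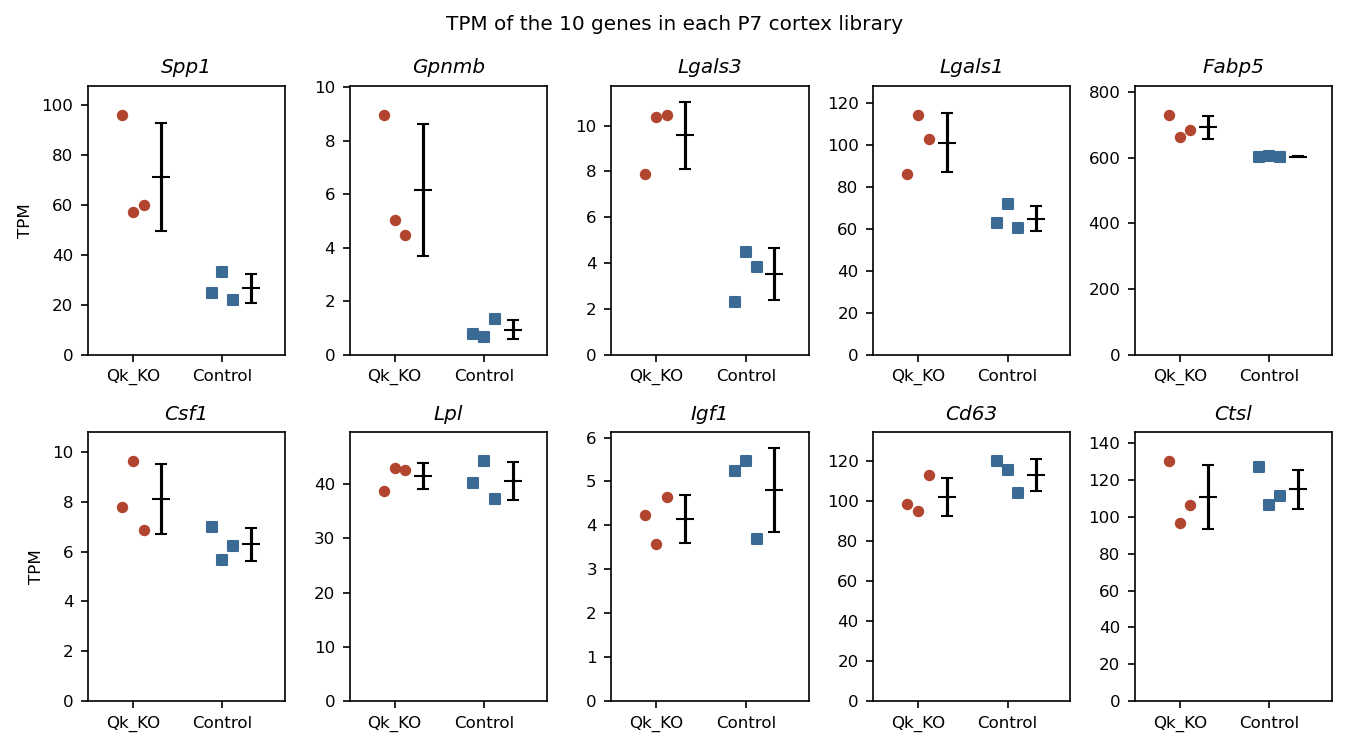
TPM of each gene (y axis, from 0) in the 3 Qk_KO libraries (red circles) and the 3 Control libraries (blue squares), in replicate order from left to right, with the group mean ± SD in black. Spp1, Gpnmb, Lgals3, Lgals1 and Fabp5 separate the groups, and Csf1, Lpl, Igf1, Cd63 and Ctsl do not.

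Spp1 encodes osteopontin, a secreted phosphoprotein that binds integrins and CD44 and is a leading transcript of the white matter microglia. It lies on chromosome 5 (GRCm38, 104435118 to 104441050, plus strand). In Qk_KO replicates 1, 2 and 3 it was at 96.1, 57.1 and 60.1 TPM, against 24.8, 33.1 and 21.8 TPM in Control replicates 1, 2 and 3. The lowest Qk_KO library stood above the highest Control library, and Qk_KO replicate 1 stood apart from the other two. Spp1 rose to a mean of 71.1 ± 21.7 TPM in Qk_KO cortex, against 26.6 ± 5.88 TPM in Control cortex (SD, n = 3 each), a ratio of means of 2.67 and a log2 change of 1.37 ± 0.209 (SE). The log2 change was between 1.13 and 1.53 when single libraries were dropped, lowest without Qk_KO replicate 1. The call was kept only in the fit without Qk_KO replicate 1, 1 of 6 such fits.

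Gpnmb encodes a transmembrane glycoprotein of lysosomes and phagosomes, found in lipid-laden macrophages and pigment cells. It lies on chromosome 6 (49036546 to 49070929, plus strand). Its level was 8.97, 5.04 and 4.46 TPM in Qk_KO replicates 1, 2 and 3, against 0.78, 0.67 and 1.33 TPM in Control replicates 1, 2 and 3. This was the largest relative gap in the set, 6.64 times by the group means, which were 6.16 ± 2.45 TPM in Qk_KO and 0.927 ± 0.354 TPM in Control cortex (SD, n = 3 each). The log2 change of TPM + 1 was 1.86 ± 0.265 (SE), smaller than the ratio because the added 1 weighs on low values. In Control cortex 0.994% of tested genes had a lower mean, in Qk_KO cortex 26.8%. The low Control share follows in part from the filter on the mean of all libraries, which Gpnmb passed through its Qk_KO values alone. Gpnmb kept its call in 0 of the 6 fits with a library dropped (highest adjusted p = 0.1, limma). Pmel, its closest relative and a pigment cell gene, was at 1.07 ± 0.189 TPM in Qk_KO and 1.20 ± 0.146 TPM in Control cortex, with overlapping groups.

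Both galectins, sugar-binding proteins that are secreted without a signal peptide, were higher in every Qk_KO library but did not pass the threshold across all genes. Lgals3 encodes galectin-3, which gathers on damaged phagosomes and serves as an opsonin. It lies on chromosome 14 (47367751 to 47386160, plus strand) and was at 7.87, 10.4 and 10.5 TPM in Qk_KO replicates 1, 2 and 3, against 2.28, 4.47 and 3.84 TPM in Control replicates 1, 2 and 3. The ratio of means was 2.71 and the log2 change 1.25 ± 0.212 (SE). Lgals1 encodes galectin-1, on chromosome 15 (78926725 to 78930465, plus strand), and was at 86.3, 115 and 103 TPM in Qk_KO replicates 1, 2 and 3, against 62.7, 71.7 and 60.3 TPM in Control replicates 1, 2 and 3. Its ratio of means was 1.56 and its log2 change 0.63 ± 0.114 (SE). For both, Qk_KO replicate 1 was the lowest knockout library, the reverse of Spp1 and Gpnmb, for which it was the highest. A pseudogene with the name Lgals1-ps2, to which reads of Lgals1 could be shared out, was listed at 2.24 to 2.70 TPM in Qk_KO and 2.43 to 3.11 TPM in Control libraries. Other galectins did not follow: Lgals8 was at 13.1 ± 1.98 TPM in Qk_KO and 14.5 ± 0.698 TPM in Control, and Lgals9 at 14.9 ± 4.17 TPM in Qk_KO and 17.2 ± 2.37 TPM in Control (SD, n = 3), both with overlapping groups.

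The lipid genes differed from each other. Fabp5, a carrier of long-chain fatty acids in the cytosol, was the most abundant member, at 731, 663 and 684 TPM in Qk_KO replicates 1, 2 and 3, against 602, 605 and 603 TPM in Control replicates 1, 2 and 3. The groups did not overlap, yet the ratio of means was only 1.15 (log2 change 0.20 ± 0.0672 SE), and the gene did not pass the threshold. The SD of the Control libraries was 1.71 TPM, that of the Qk_KO libraries 34.6 TPM. Of its relatives, Fabp7, a protein of radial glia and astrocytes, was at 1046 ± 110 TPM in Qk_KO and 900 ± 101 TPM in Control, and Fabp3 at 422 ± 30.2 TPM in Qk_KO and 382 ± 21.1 TPM in Control (SD, n = 3), the groups overlapping for Fabp7 and not for Fabp3. Lpl encodes lipoprotein lipase, which frees fatty acids from lipoproteins. It was at 38.8, 43.0 and 42.6 TPM in Qk_KO replicates 1, 2 and 3, against 40.2, 44.2 and 37.3 TPM in Control replicates 1, 2 and 3. The Lpl values interleaved completely, with a log2 change of 0.03 ± 0.0910 (SE).

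**Figure D2:**
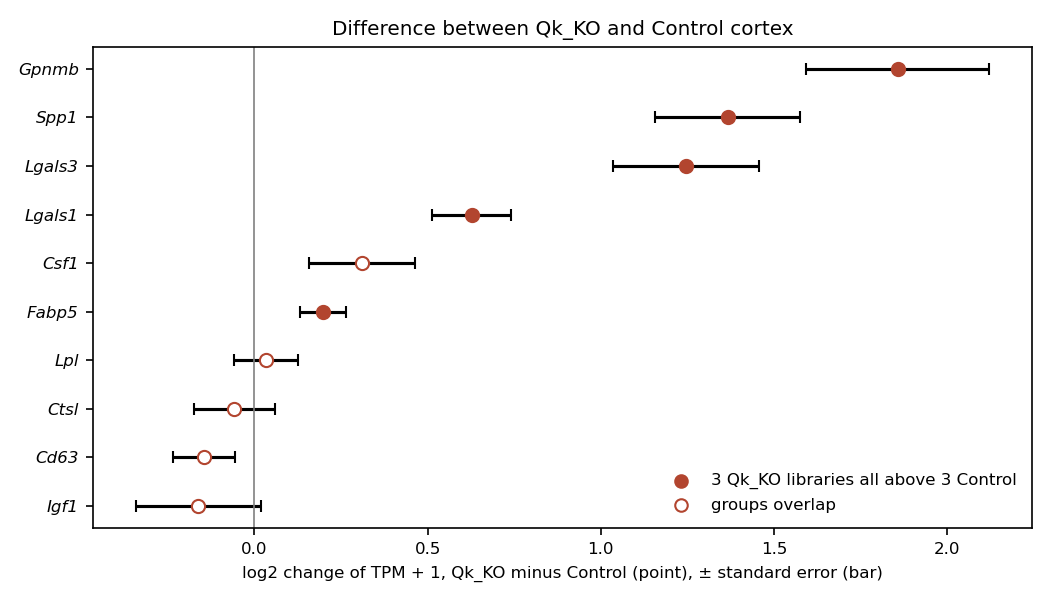
Log2 change of TPM + 1, Qk_KO minus Control (x axis), of each gene, with bars of 1 standard error from limma. Filled points are genes whose 3 Qk_KO libraries all lie above the 3 Control libraries. Gpnmb, Spp1, Lgals3 and Lgals1 lie between 0.63 and 1.86, and the other 6 genes between −0.16 and 0.31.

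Neither growth factor separated the groups. Csf1, the ligand on which microglia depend through the receptor CSF1R, was at 7.79, 9.63 and 6.88 TPM in Qk_KO replicates 1, 2 and 3, against 6.99, 5.67 and 6.24 TPM in Control replicates 1, 2 and 3. One Qk_KO library fell 0.11 TPM short of the highest Control library (log2 change 0.31 ± 0.153 SE). The receptor gene Csf1r was at 31.2 ± 4.42 TPM in Qk_KO and 32.4 ± 4.32 TPM in Control, and Il34, the other ligand of that receptor, at 29.2 ± 1.61 TPM in Qk_KO and 32.2 ± 6.26 TPM in Control (SD, n = 3). Igf1, a growth factor that the white matter microglia supply to the oligodendrocyte lineage, was at 4.24, 3.57 and 4.65 TPM in Qk_KO replicates 1, 2 and 3, against 5.24, 5.46 and 3.70 TPM in Control replicates 1, 2 and 3. Its log2 change was −0.16 ± 0.180 (SE), and the lowest value of all 6 was in Qk_KO replicate 2. The receptor Igf1r was at 7.73 ± 1.02 TPM in Qk_KO and 7.86 ± 1.64 TPM in Control.

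The endolysosomal members showed no separation either. Cd63, a tetraspanin of late endosomes and exosomes, was at 98.7, 95.3 and 113 TPM in Qk_KO replicates 1, 2 and 3, against 120, 115 and 104 TPM in Control replicates 1, 2 and 3. Its log2 change was −0.15 ± 0.0901 (SE). Ctsl, the lysosomal protease cathepsin L, was at 130, 96.5 and 106 TPM in Qk_KO replicates 1, 2 and 3, against 127, 107 and 111 TPM in Control replicates 1, 2 and 3, with a log2 change of −0.06 ± 0.117 (SE). In both genes the groups overlapped, and the highest and the lowest Ctsl value were both in Qk_KO libraries.

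TPM is scaled to length, so levels can be ordered across genes. In Control cortex the order was Fabp5, Ctsl, Cd63, Lgals1, Lpl, Spp1, Csf1, Igf1, Lgals3 and Gpnmb. Ctsl overlapped Cd63 and Igf1 overlapped Lgals3, while every other pair of neighbours was separated in all 3 Control libraries. In Qk_KO cortex Spp1 moved above Lpl, with its lowest library at 57.1 TPM and the highest Lpl library at 43.0 TPM, and overlapped Lgals1. Lgals3 moved above Csf1, and Gpnmb above Igf1, but both pairs overlapped.

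Across libraries, the members did not move as one. Among Qk_KO libraries, replicate 1 was the highest for Spp1, Gpnmb, Fabp5 and Ctsl and the lowest for Lgals3, Lgals1 and Lpl. Replicate 2, the one with Xist, was the highest for Lgals1, Csf1 and Lpl and the lowest for 5 members. Replicate 3 was the highest for Lgals3, Igf1 and Cd63. Among Control libraries, replicate 2 was the highest for 6 of the 10 members, including Spp1, Lgals3 and Lgals1, and replicate 3 was the lowest for 5.

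**Figure D3:**
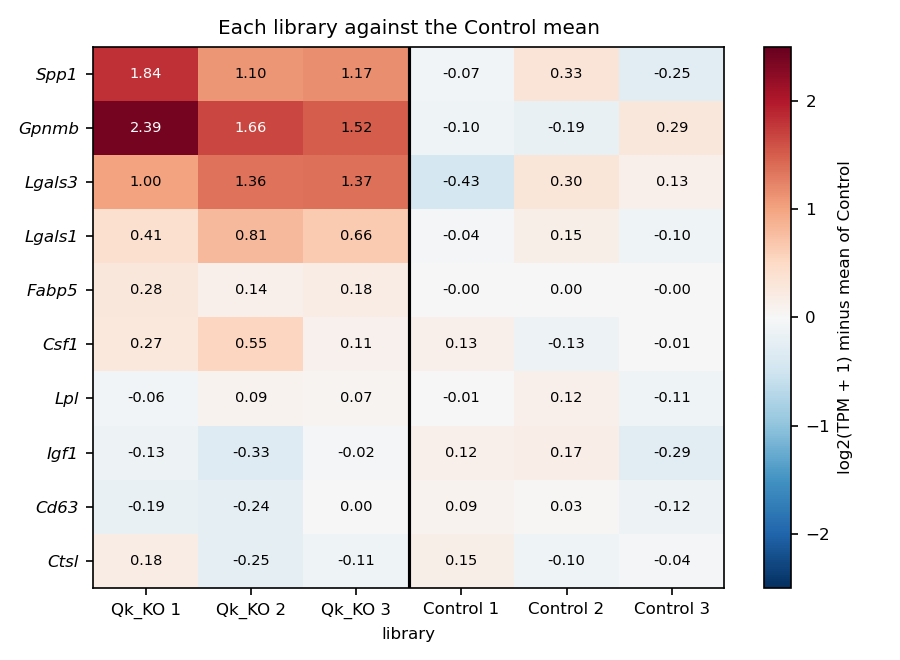
Difference of log2(TPM + 1) in each library from the Control mean (colour and printed value), with Qk_KO libraries left of Control libraries. The top rows, Spp1, Gpnmb and Lgals3, are above all Control libraries in each of the 3 Qk_KO libraries, up to 2.39 for Gpnmb in Qk_KO replicate 1.

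The general markers of microglia overlapped between the groups as a sum. Summed over 20 homeostatic markers, of which all 20 were tested, TPM was 442 to 490 in Qk_KO and 424 to 448 in Control libraries, a ratio of means of 1.05 (exact permutation test, two-sided, p = 0.4 over 20 splits, where 0.1 is the smallest possible). None of the 20 passed the threshold (limma), 6 reached an unadjusted p of 0.05, 3 in each direction, where 8.72% of all tested genes did so, and their median log2 change was −0.09. The complement genes C1qb (89.1 ± 4.07 TPM in Qk_KO, 75.0 ± 8.26 TPM in Control) and C1qc (77.9 ± 12.4 TPM in Qk_KO, 62.7 ± 6.45 TPM in Control) were the most abundant. The purinergic receptor gene P2ry12 was lower in every Qk_KO library (9.29 ± 0.321 TPM, against 12.1 ± 1.06 TPM in Control), as were Olfml3 and Selplg (SD, n = 3), none past the threshold. Set against this sum within each library, Spp1 came to 12.7% to 19.6% in Qk_KO and 4.86% to 7.44% in Control libraries, and Gpnmb to 1.01% to 1.83% in Qk_KO and 0.15% to 0.297% in Control libraries. The same 5 members separated the groups after this division as before it. This is a description, since the sum differed little between the groups and the members were chosen with this contrast known.

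Genes that usually accompany the members in phagocytic microglia were listed apart, 26 in number, of which 22 were tested. None passed the threshold (limma), 7 reached an unadjusted p of 0.05 upwards and 1 downwards, 17 had a positive and 5 a negative log2 change, and the median was 0.35. In 7 of the 22 every Qk_KO library was above every Control library, and in 1, Axl, every Control library was above. Among all tested genes, 5.2% had all Qk_KO libraries above and 8.98% all Control libraries above. An unadjusted p of 0.05 was reached by 8.72% of them in either direction (limma), a share that also stands beside the lists below. The lists were chosen with earlier results of these data known, so nothing is read from these counts. The protease gene Ctsz was at 83.2, 88.9 and 79.7 TPM in Qk_KO replicates 1, 2 and 3, against 65.6, 58.1 and 58.8 TPM in Control replicates 1, 2 and 3 (limma, adjusted p = 0.068). The lysosomal glycoprotein gene Cd68 was at 18.0, 11.9 and 13.6 TPM in Qk_KO and 7.31, 5.64 and 10.9 TPM in Control, and the endotoxin co-receptor gene Cd14 at 7.31, 7.57 and 5.22 TPM in Qk_KO and 3.33, 2.07 and 3.29 TPM in Control. Tyrobp, Cd9, Lyz2 and Lilrb4a were the other 4 of the 7 genes. Lyz2 was uneven, at 31.7, 49.0 and 21.2 TPM in Qk_KO and 19.4, 20.3 and 20.3 TPM in Control. Other genes of the programme overlapped: Trem2, a lipid-sensing receptor of microglia, was at 15.4 ± 1.97 TPM in Qk_KO and 16.0 ± 3.62 TPM in Control, and Apoe at 1494 ± 172 TPM in Qk_KO and 1603 ± 134 TPM in Control (SD, n = 3). The protease gene Ctsb overlapped too (416 ± 28.9 TPM in Qk_KO, 385 ± 37.4 TPM in Control). The phagocytic receptor genes Axl (11.1 ± 0.417 TPM in Qk_KO, 14.9 ± 1.27 TPM in Control) and Mertk (4.46 ± 0.838 TPM in Qk_KO, 5.72 ± 0.765 TPM in Control) had lower means in Qk_KO. Itgax and Cst7, also on this list, averaged below 1 TPM and were not tested.

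**Figure D4:**
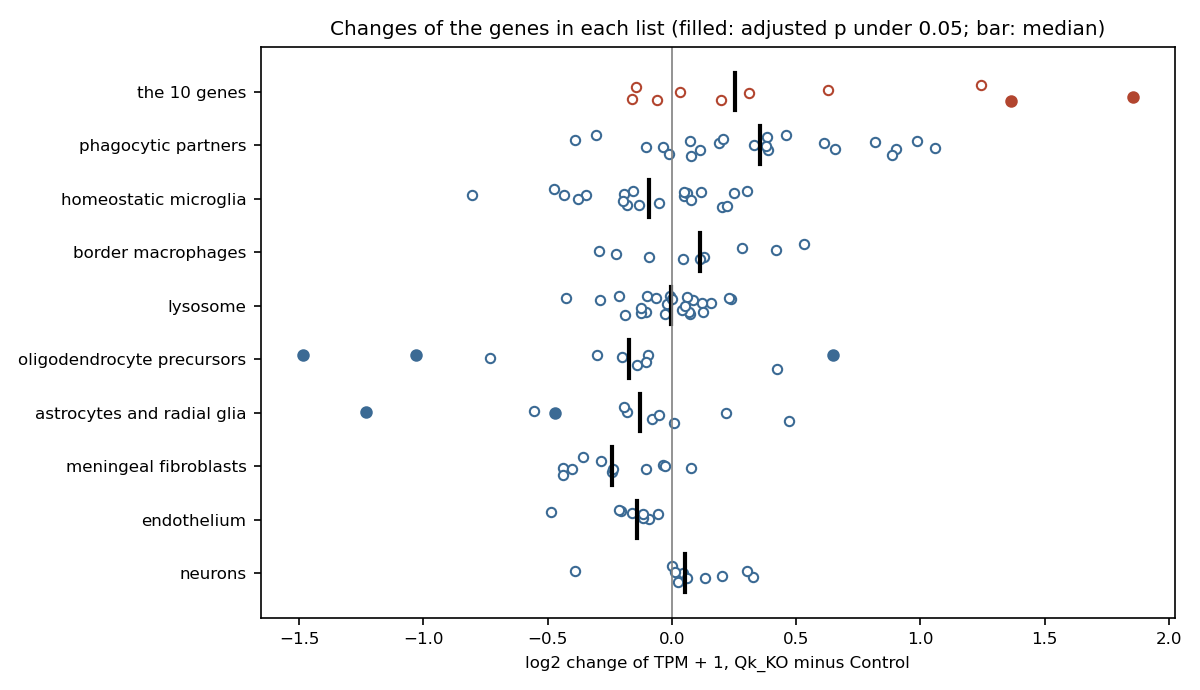
Log2 change of TPM + 1, Qk_KO minus Control (x axis), of each tested gene in 10 lists (rows), the 10 followed genes in red; vertical scatter within a row carries no value. Filled points passed an adjusted p of 0.05 across all genes and bars are medians, at 0.25 for the 10 genes, 0.35 for their phagocytic partners and −0.09 for homeostatic microglia.

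Lysosomal genes and the receptors of the members held no gene past the threshold. Of 24 tested lysosomal genes none passed (1 upwards and 4 downwards at an unadjusted p of 0.05, limma), with 12 positive and 12 negative changes and a median of −0.003. Lamp1, the abundant lysosomal membrane glycoprotein, was at 293 ± 5.84 TPM in Qk_KO and 359 ± 19.5 TPM in Control with no overlap, Psap, the saposin precursor, at 998 ± 30.0 TPM in Qk_KO and 1004 ± 50.5 TPM in Control, and the proton pump subunit Atp6v0d1 at 945 ± 90.5 TPM in Qk_KO and 918 ± 45.8 TPM in Control. Among 24 tested receptors and regulators of the members none passed (3 upwards and 2 downwards unadjusted) and the median was 0.003. Cd44, the osteopontin and hyaluronan receptor, was at 3.63, 3.93 and 4.99 TPM in Qk_KO and 2.79, 3.22 and 2.06 TPM in Control. The listed integrin genes all overlapped between the groups. Their log2 changes were 0.05 for Itgav, −0.04 for Itgb1, 0.09 for Itgb3, −0.11 for Itgb5 and −0.03 for Itga4. Igfbp4, which binds IGF1, was at 138 ± 10.6 TPM in Qk_KO and 110 ± 11.3 TPM in Control, without overlap. Cst3, the secreted cathepsin inhibitor cystatin C, was at 2025 ± 166 TPM in Qk_KO and 2001 ± 174 TPM in Control, and the tetraspanin gene Cd81 at 227 ± 13.4 TPM in Qk_KO and 263 ± 12.3 TPM in Control. Of 24 tested family relatives of the members none passed (4 upwards and 3 downwards unadjusted, median 0.10).

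Other cells that make some of the members were gauged by their marker lists, whose part in the members' levels was not tested. The 11 border macrophage genes (9 tested, none past the threshold, 1 upwards at an unadjusted p of 0.05, limma) summed to 73.7 to 106 TPM in Qk_KO and 67.9 to 83.7 TPM in Control libraries. Pf4 was at 30.8, 43.7 and 19.0 TPM in Qk_KO and 22.0, 22.6 and 16.4 TPM in Control, and Dab2 overlapped as well (17.7 ± 2.38 TPM in Qk_KO, 16.2 ± 1.05 TPM in Control). The 10 blood leukocyte genes summed to 3.31 to 8.84 TPM in Qk_KO and 2.70 to 6.93 TPM in Control, and 3 of them were tested, none past the threshold (limma, 0 at an unadjusted p of 0.05). The list's highest genes encode calgranulins of neutrophils and monocytes. They were S100a9, at 2.99, 2.09 and 1.90 TPM in Qk_KO replicates 1, 2 and 3, against 1, 0 and 3.35 TPM in Control replicates 1, 2 and 3, and S100a8, at 3.28, 0 and 0 TPM in Qk_KO, against 1.46, 1.73 and 1.62 TPM in Control. Plac8 was at 0.52 to 2.22 TPM in Qk_KO and 0.42 to 2.46 TPM in Control, Camp was at 0 in all 6 libraries, and Ccr2 and Ly6c2 were below 0.5 TPM in each. The 11 meningeal fibroblast genes, all tested, had 10 negative changes and none past the threshold (4 downwards unadjusted), and summed to 366 to 442 TPM in Qk_KO and 437 to 529 TPM in Control. Endothelial genes (8 of 8 negative, sum 475 to 524 TPM in Qk_KO and 500 to 622 TPM in Control) and pericyte genes (7 of 7 negative, 208 to 230 TPM in Qk_KO and 252 to 265 TPM in Control) ran the same way, and 8 choroid plexus genes summed to 679 to 1034 TPM in Qk_KO and 758 to 1548 TPM in Control. The 2 most abundant genes of each of these lists were the growth factor gene Igf2 (162 ± 19.1 TPM in Qk_KO, 208 ± 27.9 TPM in Control) and Dcn (66.6 ± 7.49 TPM in Qk_KO, 68.5 ± 9.05 TPM in Control) for fibroblasts, Cldn5 (324 ± 35.2 TPM in Qk_KO, 349 ± 70.3 TPM in Control) and Itm2a (94.01 ± 3.85 TPM in Qk_KO, 102 ± 11.8 TPM in Control) for endothelium, and Vtn (138 ± 8.44 TPM in Qk_KO, 172 ± 8.56 TPM in Control) and Rgs5 (36.7 ± 0.736 TPM in Qk_KO, 38.3 ± 1.83 TPM in Control) for pericytes. For the choroid plexus they were Ttr, which encodes transthyretin (783 ± 184 TPM in Qk_KO, 1210.3 ± 423 TPM in Control), and the folate receptor gene Folr1 (15.6 ± 1.25 TPM in Qk_KO, 22.9 ± 8.08 TPM in Control; SD, n = 3).

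Of 193 tested genes over all lists, 7 passed the threshold, 4 without Qk_KO replicate 2, and all 7 were in glial lists. Among all tested genes 0.387% passed. The lists were chosen with earlier results of these data known, so nothing is read from this count. Of 10 oligodendrocyte precursor genes, Gpr17 (12.9 ± 3.24 TPM in Qk_KO, 37.5 ± 4.78 TPM in Control) and Bcas1 (16.5 ± 2.46 TPM in Qk_KO, 34.6 ± 2.94 TPM in Control), of cells leaving the precursor stage, fell. The lineage factor Olig2 rose (97.3 ± 6.01 TPM in Qk_KO, 61.8 ± 4.64 TPM in Control; SD, n = 3), Olig1, the other abundant gene of the list, did not pass (185 ± 14.3 TPM in Qk_KO, 138 ± 13.2 TPM in Control), and the list summed to 419 to 440 TPM in Qk_KO and 398 to 440 TPM in Control. Of 6 tested myelin genes Mbp (51.4 ± 1.85 TPM in Qk_KO, 93.5 ± 1.50 TPM in Control) and Cnp (53.3 ± 6.66 TPM in Qk_KO, 90.9 ± 5.40 TPM in Control) fell, and 9 listed genes summed to 150 to 173 TPM in Qk_KO and 245 to 251 TPM in Control. Of 10 astrocyte and radial glia genes the glutamate transporter gene Slc1a3 (112 ± 4.86 TPM in Qk_KO, 265 ± 11.3 TPM in Control) and the connexin gene Gja1 (51.6 ± 2.44 TPM in Qk_KO, 71.9 ± 2.13 TPM in Control) fell, and the list summed to 1727 to 1976 TPM in Qk_KO and 1810 to 2067 TPM in Control. In the 6 fits with a library left out, Slc1a3 and Mbp passed in 6, Gpr17 and Bcas1 in 5, Olig2 in 3, Cnp in 2 and Gja1 in 0. None of 10 neuronal genes passed (3 upwards and 1 downwards unadjusted, limma), and they summed to 5556 to 5776 TPM in Qk_KO and 5002 to 5432 TPM in Control. Tubb3 (2399.7 ± 97.0 TPM in Qk_KO, 2409.7 ± 327 TPM in Control) and the interneuron gene Sst (1314 ± 61.9 TPM in Qk_KO, 1054 ± 141 TPM in Control) were the most abundant of them. Over the 11 marker lists the sums of oligodendrocytes, pericytes and neurons did not overlap (exact permutation test, two-sided, p = 0.1, the smallest possible, adjusted p = 0.367 over 11 lists). None of 7 proliferation genes passed (2 upwards unadjusted, median 0.24), and Pcna (118 ± 12.7 TPM in Qk_KO, 99.1 ± 5.13 TPM in Control) and Hmgb2 (68.8 ± 7.08 TPM in Qk_KO, 52.0 ± 0.119 TPM in Control) were the most abundant.

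The genes nearest to Spp1 and Gpnmb in their pattern over the 6 libraries were found by the mean absolute difference of log2(TPM + 1), each gene centred on its own mean. The nearest to Spp1 were Wisp2 (difference 0.203), Vit (0.221), Cd79b (0.224), Tnnc1 (0.257) and Lilrb4a (0.265). Vit was at 21.1, 18.4 and 19.1 TPM in Qk_KO and 9.41, 10.1 and 9.15 TPM in Control, while the other 4 averaged below 4 TPM in both groups. The nearest to Gpnmb were A2m (0.183), Myoc (0.284), Prss32 (0.319), Emp1 (0.342) and Spp1 (0.345). A2m, a protease inhibitor, was at 23.5, 23.5 and 16.6 TPM in Qk_KO and 5.66, 4.77 and 6.23 TPM in Control. Myoc was at 21.9, 23.1 and 22.3 TPM in Qk_KO and 7.44, 8.78 and 8.73 TPM in Control. Emp1 was at 14.9, 15.9 and 19.3 TPM in Qk_KO and 4.74, 5.87 and 6.95 TPM in Control. Besides Spp1, those past the threshold were Vit, A2m, Myoc and Emp1 (limma, adjusted p = 0.00646, 0.00257, 0.00153 and 0.00786). None of these was in the marker lists used here, and which cells made them was not tested. The patterns of all these near genes carry the group difference that chose the members, so the nearness is a description.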

How the data were processed

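RNA-seq of the P7 mouse cortex (3 Qk_KO and 3 Control libraries) was taken as TPM made by the authors with STAR 2.4.1d and RSEM 1.3.0 (builds mm10 and GRCm38.p4), as the submitters' processing notes name them. Per the labels' protocols, RNA was polyA-selected and sequenced on the Ion Proton. The annotation used is not given in the sources used here. TPM hide the read number, so no counting error could be given, and values within a library depend on each other through the fixed total.

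Groups and replicate numbers came from the titles. Genes averaging 1 TPM or more were fitted as log2(TPM + 1) with limma 3.58.1 (R 4.3.3, eBayes with trend, group as the only term), with Benjamini-Hochberg adjustment of two-sided p-values over 14994 genes and a threshold of 0.05. The fit was tested on simulated data. The labels speak of separate brains. The symbol Plin2 occurs on 2 rows, and the one RefSeq pairs with it was used.

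The members and all lists were chosen with earlier results of these data known. Genes named were the 10 members, Qk, from each list the called genes (up to 4) and the 2 of highest mean TPM, and the 5 nearest profiles. Others, such as Ctsz, Cd68, Cd14, Tyrobp, Trem2, Axl, Mertk, Lyz2, P2ry12, Cd44, Lamp1, Csf1r, Il34, Igf1r, Igfbp4, Pmel, Lgals8, Lgals9, Plac8, Camp, Ccr2 and Ly6c2, were named after their values were seen, and the promoter motifs were chosen then too. The integrin genes given with Cd44 were named after their values were seen as well. Positions are from GENCODE M21 (GRCm38).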

Additional observations from a re-analysis of the deposited data

How the results depend on the processing

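The count of genes past the threshold was 58, 15 of them higher in Qk_KO, and it was 37 with no filter on low values, 28 in limma without trend, and 27 to 59 when 1 library was left out. The genes higher in Qk_KO among them numbered 9 with no filter, 8 without trend, 8 in the blocked fit and 6 to 21 with a library left out. The members past the threshold numbered 2 in the reported fit, 0 with no filter, 0 without trend, and 0 to 2 with a library left out: 2 without Qk_KO replicate 1 (Spp1 and Lgals1) and 0 without any other. With only genes averaging 5 TPM or more, Lgals3 and Lgals1 passed beside Spp1, and Gpnmb and Igf1 were not tested. Listed genes past the threshold numbered 7, 2 without trend and 3 to 6 with a library left out. Changes near 0 took both signs when a library was left out, none of them past the threshold, on the log2 scale: Lpl −0.0237 to 0.0954, Ctsl −0.178 to 0.0366, Atp6v0d1 −0.00812 to 0.121, Cldn5 −0.183 to 0.0683, Cst3 −0.047 to 0.0857, Dcn −0.128 to 0.0594, Psap −0.0477 to 0.0244, Tubb3 −0.115 to 0.0692. Psap also turned to 0.0202 with median-of-ratios scaling. The cause was not tested. In no alternative that tested them did Spp1, Gpnmb, Lgals3, Lgals1, Fabp5 or Csf1 lose its positive sign or Igf1 or Cd63 its negative one.

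Replicate numbers are shared by both groups, but same-numbered libraries deviated from their group means with correlations, over genes, of 0.0134 to 0.035 only, so they were not treated as pairs. Every library correlated best with the library of its own number, a hint from the data alone. With the replicate number as a block, 38 genes passed, 1 member (Lgals3) and 4 listed genes.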
